A study of Mus musculus with 7 samples.

Results

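The 10 genes described here are markers of the macrophages of the liver, read in 7 RNA libraries of mouse liver. Clec4f, Vsig4, Cd5l, Timd4 and Marco mark resident Kupffer cells, and C1qa, C1qb, C1qc, Csf1r and Cd68 mark macrophages in general. They were chosen by name, and each had 1 of the 37468 rows of every table. All 10 reached 1 FPKM in at least 1 library and were among the 15744 genes tested, although Timd4 did so only in the WT and SunTag libraries. FPKM is the number of sequenced fragments per length of transcript and size of library, so levels can be set side by side between genes.

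All libraries came from liver of C57BL/6 mice. WT was 2 libraries of wild-type mice, and SunTag was 2 libraries of SunTag-dCas9 mice. These mice carry a Cas9 protein that binds DNA without cutting it, joined to a repeated peptide tag that recruits effector proteins. Myod1_active (1 library, Myod1 activated) and Myod1_control (2 libraries, its control) were also from SunTag-dCas9 mice, so the control group carries the dCas9 system too. How Myod1, a transcription factor of muscle, was activated, what the controls received and the age of the mice do not stand in the labels. No label ties a replicate to an animal of its own. The spread behind every p-value is therefore that of libraries, and it may be technical.

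Kupffer cells are the macrophages that live in the sinusoids of the liver, attached to the endothelium and facing the blood. They take up bacteria, worn-out red cells and dying cells, and most of them renew themselves in the tissue without a supply from blood monocytes. When they are lost, monocytes enter and acquire the resident genes gradually, Timd4 among the last. Signalling through Csf1r keeps nearly all macrophages alive, whereas the genes of the resident set depend on cues of the liver itself.

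Total read counts were unknown. Judged by how wide the deposited intervals were, the relative depth of the 7 libraries lay between 0.943 and 1.09, and 12971 to 13804 genes reached 1 FPKM. Alb, the main hepatocyte product, was at 2.85e+04 to 5.41e+04 FPKM in every library, as the tissue label says. Myod1 was at 3.52 FPKM in Myod1_active and listed at 0 in the other 6. Xist, expressed from the inactive X chromosome of females, was at 56.9 to 82.2 FPKM in WT and SunTag and at 0.324 or less in the Myod1 experiment. Ddx3y, a Y-linked gene, was at 6.97 to 9.23 FPKM in the Myod1 experiment and at 0.0765 or less elsewhere. The experiment and the sex-linked expression therefore cannot be told apart in any comparison across them. SunTag replicate 1 stood apart among the 4 WT and SunTag libraries. It was the highest of the 7 libraries for 9 of the 10 markers, against 25.0% of all tested genes. Its summed levels of neutrophil markers (47.8 against 8.90 to 18.8 FPKM) and erythroid markers (6391 against 2337 to 3921 FPKM) were also the highest of the 4. Results that rest on it are given with and without it.

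The resident markers were readily detected in WT and SunTag liver and lay at low levels in all 3 libraries of the Myod1 experiment. Clec4f, a C-type lectin that is restricted to Kupffer cells in the mouse, was the most abundant of the 5 in WT and SunTag. The gene (ENSMUSG00000014542) spans chr6:83594536-83606181 on mm9. Its levels were 92.4 and 126 FPKM in WT, 148 and 103 FPKM in SunTag, 11.4 and 13.3 FPKM in Myod1_control, and 9.05 FPKM in Myod1_active. The lowest WT or SunTag library held several times as much as the highest library of the Myod1 experiment.

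Vsig4, the complement receptor with which Kupffer cells capture opsonised particles from blood, lies at chrX:93442542-93488777 (ENSMUSG00000044206). Its levels were 17.7 and 19.0 FPKM in WT, 27.1 and 18.9 FPKM in SunTag, 3.25 and 2.48 FPKM in Myod1_control, and 1.63 FPKM in Myod1_active. Cd5l, a secreted scavenger protein of tissue macrophages, lies at chr3:87161803-87174996 (ENSMUSG00000015854). Its levels were 39.4 and 46.7 FPKM in WT, 57.5 and 42.7 FPKM in SunTag, 13.5 and 8.55 FPKM in Myod1_control, and 8.63 FPKM in Myod1_active. For both genes the 4 WT and SunTag libraries lay above all 3 of the Myod1 experiment. The Cd5l level in Myod1_active fell within the range of its controls, and that of Vsig4 was below it.

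Timd4, a receptor for phosphatidylserine on dying cells, lies at chr11:46624302-46657834 (ENSMUSG00000055546). It was the least abundant resident marker except in 1 library, at 2.76 and 3.02 FPKM in WT, 3.85 and 2.71 FPKM in SunTag, 0.579 and 0.632 FPKM in Myod1_control, and 0.574 FPKM in Myod1_active. Marco, a class A scavenger receptor for bacteria, lies at chr1:122371115-122401661 (ENSMUSG00000026390). Its levels were 5.49 and 2.1 FPKM in WT, 15 and 3.99 FPKM in SunTag, 1.13 and 1.93 FPKM in Myod1_control, and 1.19 FPKM in Myod1_active. Timd4 varied little within WT and within Myod1_control, whereas Marco, relative to its mean, varied more within WT and within SunTag than any other marker. The library in which Timd4 was not the lowest was WT replicate 2, where Marco was.

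Of the 5 general markers 4 showed the same division of libraries. C1qa, C1qb and C1qc encode the 3 chains of C1q, the protein that starts the classical complement pathway, and lie side by side on chromosome 4. On mm9 C1qa (ENSMUSG00000036887) spans chr4:136451832-136454718, C1qc (ENSMUSG00000036896) chr4:136445719-136448980 and C1qb (ENSMUSG00000036905) chr4:136436044-136442102. C1qa was at 70.4 and 91.3 FPKM in WT, 133 and 72.7 FPKM in SunTag, 13.7 and 14.7 FPKM in Myod1_control, and 13.7 FPKM in Myod1_active. C1qb was at 53.0 and 67.3 FPKM in WT, 96.6 and 52.9 FPKM in SunTag, 9.74 and 14.3 FPKM in Myod1_control, and 13.8 FPKM in Myod1_active. C1qc was at 46.9 and 61.4 FPKM in WT, 93.7 and 52.9 FPKM in SunTag, 9.97 and 13.1 FPKM in Myod1_control, and 15.1 FPKM in Myod1_active. SunTag replicate 1 was the highest for each chain, and SunTag replicate 2 lay within the range of WT or just below it.

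Csf1r, the receptor through which macrophages receive their survival factors Csf1 and Il34, lies on chromosome 18 (ENSMUSG00000024621). Its levels were 12.5 and 17.5 FPKM in WT, 19.0 and 16.2 FPKM in SunTag, 3.77 and 3.83 FPKM in Myod1_control, and 5.08 FPKM in Myod1_active. Cd68, a glycoprotein of the lysosomal membrane that marks phagocytic cells, lies at chr11:69477715-69479655 (ENSMUSG00000018774). Its levels were 7.32 and 9.97 FPKM in WT, 11.0 and 8.69 FPKM in SunTag, 4.51 and 9.09 FPKM in Myod1_control, and 14.0 FPKM in Myod1_active. Cd68 was the only 1 of the 10 whose highest library was Myod1_active (31.4% of all genes), and the only 1 whose Myod1_control and SunTag libraries overlapped. The Csf1r span overlaps that of Hmgxb3, at 2.14 to 3.37 FPKM, and Cd68 lies 783 bases from Eif4a1, at 86.3 to 130 FPKM. Use of strand in counting is not stated, and a share of such neighbours in the values was not tested.

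**Figure D1:**
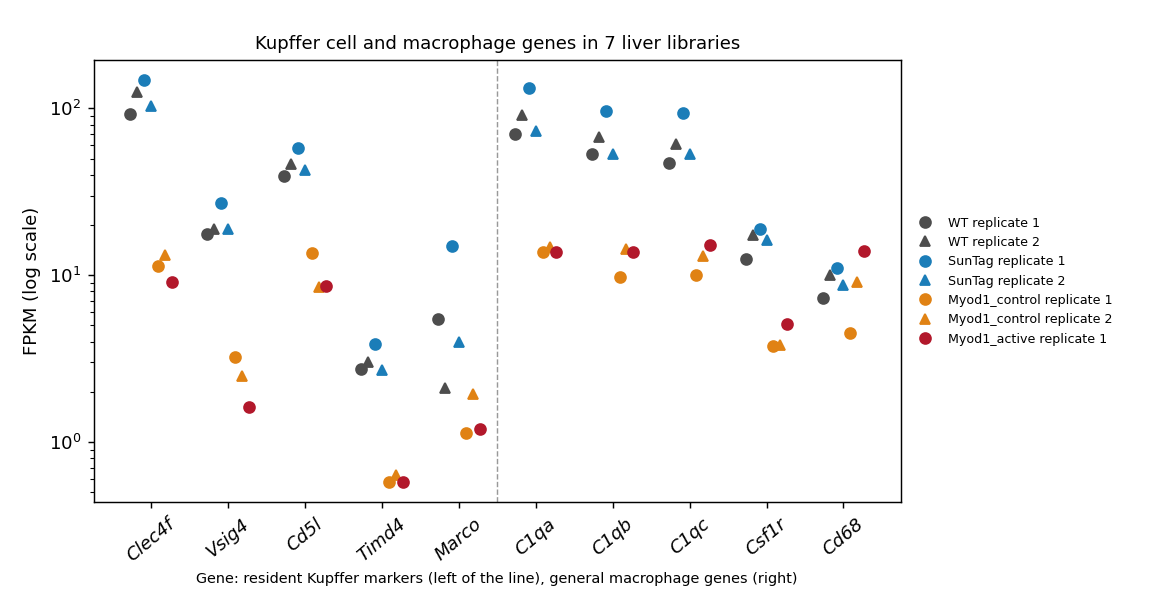
FPKM (log scale) of the 10 marker genes in each of the 7 libraries, by group, with circles for replicate 1 and triangles for replicate 2 and a dashed line between the resident and the general markers. For 9 of the 10 genes the 3 libraries of the Myod1 experiment lie below all 4 of WT and SunTag, and for Cd68 the single Myod1_active library, at 14.0 FPKM, is the highest.

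The order of the group means was SunTag, WT, Myod1_control, Myod1_active for all 5 resident markers and C1qa. For C1qb, C1qc and Csf1r it was SunTag, WT, Myod1_active, Myod1_control, and for Cd68 it was Myod1_active, SunTag, WT, Myod1_control. SunTag and WT, neighbours in that order, overlapped for all 10 genes, a count given without the share over all genes. Myod1_active lay outside the range of its 2 controls for 7 of the 10, and for 78.0% of all tested genes, so this share is no higher than the background.

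The sequences just upstream of the start sites are shown because 8 of the markers moved together, and so that the neighbouring C1q genes can be set beside Cd68, which did not. RefSeq (GRCm38.p6) promoters were found for 8 of the 10 genes, not for C1qa and Csf1r. In the 250 bases before each start, 2 short motifs were searched on both strands. GAGGAA (reverse complement TTCCTC) and AGGAAGT (reverse complement ACTTCCT) hold the core bound by ETS-family factors such as Sfpi1, the master regulator of macrophages, and matches of the 2 can overlap. The following windows run 5′ to 3′ on the gene's strand with motif matches in capitals.
Clec4f, chr6:83656117-83656366, minus strand: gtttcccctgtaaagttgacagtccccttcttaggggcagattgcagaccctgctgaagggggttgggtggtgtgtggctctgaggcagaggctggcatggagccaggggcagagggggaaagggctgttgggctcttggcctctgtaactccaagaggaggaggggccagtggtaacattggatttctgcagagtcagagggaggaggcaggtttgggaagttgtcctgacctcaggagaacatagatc
Vsig4, chrX:96293439-96293688, minus strand: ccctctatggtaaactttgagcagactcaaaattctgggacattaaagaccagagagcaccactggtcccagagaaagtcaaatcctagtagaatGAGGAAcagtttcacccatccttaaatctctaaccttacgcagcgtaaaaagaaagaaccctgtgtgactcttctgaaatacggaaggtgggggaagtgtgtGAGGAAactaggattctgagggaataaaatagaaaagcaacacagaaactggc
C1qb, chr4:136886201-136886450, minus strand: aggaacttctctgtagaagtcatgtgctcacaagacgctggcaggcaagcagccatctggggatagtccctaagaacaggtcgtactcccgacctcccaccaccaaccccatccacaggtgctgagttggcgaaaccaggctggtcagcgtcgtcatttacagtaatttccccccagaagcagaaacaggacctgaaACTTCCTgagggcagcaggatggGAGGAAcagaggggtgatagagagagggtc
C1qc, chr4:136892915-136893164, minus strand: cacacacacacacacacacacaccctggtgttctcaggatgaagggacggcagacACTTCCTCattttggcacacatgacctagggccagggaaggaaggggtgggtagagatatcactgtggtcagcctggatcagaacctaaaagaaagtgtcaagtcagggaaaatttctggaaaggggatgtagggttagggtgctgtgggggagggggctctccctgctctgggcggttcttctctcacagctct
Cd68, chr11:69666171-69666420, minus strand: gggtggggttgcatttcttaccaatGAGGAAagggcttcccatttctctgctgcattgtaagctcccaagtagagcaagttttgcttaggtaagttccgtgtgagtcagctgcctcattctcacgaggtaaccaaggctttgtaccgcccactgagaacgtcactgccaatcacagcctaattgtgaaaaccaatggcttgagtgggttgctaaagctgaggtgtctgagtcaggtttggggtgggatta

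GAGGAA was found in 6 of the 8 windows, those of Vsig4, Cd5l, Marco, C1qb, C1qc and Cd68, and in 23.3% of all 32851 promoter windows of the same length. AGGAAGT was found in C1qb and C1qc and in 7.69% of all windows. In C1qc, whose match starts 195 bases before the start, the 2 motifs overlap in 1 run. The windows of Clec4f and Timd4 held neither string of letters. Cd68 thus has a match as most of the others do, and a match describes letters in a window, not a bound site.

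The comparison of Myod1_control with SunTag sets libraries of the Myod1 experiment against libraries of other mice that also carry SunTag-dCas9. In Myod1_control 8 of the 10 markers fell: the resident markers Clec4f, Vsig4, Cd5l and Timd4, and the general markers C1qa, C1qb, C1qc and Csf1r. Over all tested genes 24.3% passed limma's test in this comparison (adjusted p under 0.05), 17.0% as lower. Marco and Cd68 did not pass. Timd4, under 1 FPKM in all libraries of the Myod1 experiment, had entered the test only through the WT and SunTag libraries. With no filter on low values the same 8 passed, as did 10.35% of all genes. Differences are given on the log2(FPKM + 1) scale as distances from the comparison's median gene, which itself was at -0.14, and the SE and adjusted p are those before that shift.

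Clec4f fell from a mean of 126 ± 31.7 FPKM (SD, n = 2) in SunTag to 12.3 ± 1.31 FPKM (SD, n = 2) in Myod1_control, a 10.2-fold difference of the means. On the log2 scale this was -3.09 (SE 0.251, adjusted p = 0.0130), rank 80 from the lowest of 15744 genes. Vsig4 fell from 23.0 ± 5.80 to 2.87 ± 0.543 FPKM (log2 difference -2.48, SE 0.215, adjusted p = 0.0137). Cd5l, at 50.1 ± 10.5 and 11.0 ± 3.51 FPKM, had a smaller difference of -1.97 (SE 0.269, adjusted p = 0.0182). Timd4 had a ratio of means of 5.42, above that of Cd5l at 4.55, but its log2 difference of -1.27 (SE 0.177, adjusted p = 0.0182) was smaller, since the added 1 weighs more on a gene of 3.28 FPKM. Marco was at 9.50 ± 7.80 against 1.53 ± 0.567 FPKM, a log2 difference of -1.70 with an SE of 0.661 (adjusted p = 0.102). It did not pass, although its libraries did not overlap between the groups. The Marco difference was -0.87 without SunTag replicate 1, and -2.55 without SunTag replicate 2, where it passed (adjusted p = 0.0454).

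Among the general markers the C1q chains differed by similar amounts. The log2 difference was -2.57 for C1qa (SE 0.320, adjusted p = 0.0171), -2.37 for C1qb (SE 0.352, adjusted p = 0.0200) and -2.39 for C1qc (SE 0.326, adjusted p = 0.0183). Csf1r fell from 17.6 ± 2.02 to 3.80 ± 0.0460 FPKM, a log2 difference of -1.81 (SE 0.195, adjusted p = 0.0151). Cd68 was at 9.84 ± 1.63 FPKM in SunTag and 6.80 ± 3.24 FPKM in Myod1_control, a log2 difference of -0.40 (SE 0.339, adjusted p = 0.293). Without Myod1_control replicate 1, the library with 4.51 FPKM, the Cd68 difference was 0.0472 and so of the other sign. In RNA of whole tissue, fewer cells of a type and less RNA per cell cannot be told apart.

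Libraries of SunTag and Myod1_control did not overlap, with Myod1_control lower, for 9 of the 10 markers and for 41.6% of all tested genes. The 3 libraries of the Myod1 experiment lay below all 4 of WT and SunTag for the same 9 markers, and for 23.6% of all genes. The calls depended on which libraries were in the fit. The WT libraries enter only the shared estimate of the spread. Leaving 1 of them out does not change the difference between Myod1_control and SunTag. Of the 8 markers, 0 passed limma's test without WT replicate 1 (adjusted p from 0.0620 to 0.0689), WT replicate 2 (0.0638 to 0.0696), Myod1_control replicate 1 (0.0698 to 0.0883) or Myod1_control replicate 2 (0.0685 to 0.0821), while at an unadjusted p under 0.05 there were 8, 8, 8 and 9 of all 10 markers, and 35.9%, 35.9%, 33.5% and 33.0% of all genes. Over all genes the calls dropped from 3832 to 59, 58, 127 and 126 in these fits. Of the 68 genes of the other lists that passed in the fit with all libraries, 5, 5, 6 and 7 did so in these fits, the 4 globin genes in each. Without SunTag replicate 1, 6 passed, with Cd5l at 0.0584 and C1qb at 0.0519, and in a fit of these 2 groups alone 3 passed, Clec4f, Vsig4 and Csf1r. The log2 difference of all 9 markers other than Cd68 was below 0 in each of these fits, and that of Clec4f ranged from -3.36 to -2.84 over the libraries left out.

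**Figure D2:**
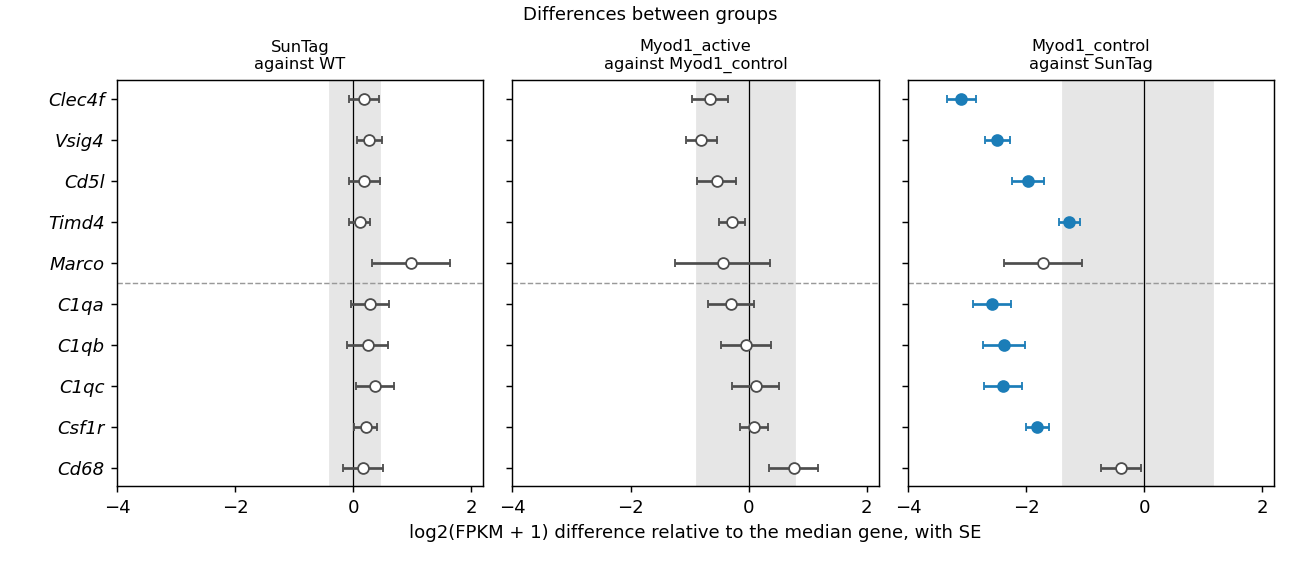
Log2 difference of each marker relative to the median gene in the 3 comparisons, with bars of 1 SE; filled blue points passed limma's test (adjusted p under 0.05) and the grey band spans the 5th to 95th percentile of all 15744 tested genes. In Myod1_control against SunTag 8 markers pass, and in the other comparisons 0 of the 10 do.

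Other genes of macrophages were lower too, with exceptions in each list. Over all tested genes, 17.0% passed as lower. Of 9 further genes known from Kupffer cells, 6 fell in Myod1_control and 1 rose. Those that fell were Emr1, which encodes the common macrophage surface antigen, the folate receptor Folr2, the haemoglobin scavenger receptor Cd163, the ficolin Fcna, the lectin Clec1b and Il18bp, the inhibitor of interleukin 18. The median of the list was -1.37. Fcna, for example, was at 29.9 and 41.9 FPKM in SunTag and 7.72 and 7.65 FPKM in Myod1_control (log2 difference -1.93, adjusted p = 0.0162). C6, a late complement component that hepatocytes also make, rose from 10.02 and 4.63 to 164 and 123 FPKM (log2 difference 4.32, adjusted p = 0.0137), against the rest of its list.

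Of 16 genes of phagocytes 10 fell and 0 rose, and all 16 lay below the median gene (median -0.89). In both Myod1_control libraries 3 of these 10, and 1 of the 6 Kupffer cell genes that fell, were under 1 FPKM, so they too were tested only because other libraries were higher. Aif1, an actin-binding protein of macrophages, was at 24.8 and 10.3 FPKM in SunTag and 0.726 and 1.40 FPKM in Myod1_control (log2 difference -2.93, adjusted p = 0.0206). Fcgr1 and Fcer1g, subunits of receptors for antibody, fell by 1.47 and 1.66 on the log2 scale (adjusted p = 0.0189 and 0.0265). Lyz2, the lysozyme of myeloid cells, did not pass (adjusted p = 0.184): its Myod1_control libraries were at 16.1 and 54.9 FPKM, and the SunTag libraries at 91.3 and 56.5 FPKM.

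Of 8 tested transcription factors of macrophages 3 fell. They were Sfpi1, Maf and Zeb2, with log2 differences of -1.02, -1.40 and -0.78 (adjusted p = 0.0326, 0.0132 and 0.0272). Id3, an inhibitor of helix-loop-helix factors that is required by Kupffer cells and made in other cells too, rose (log2 difference 1.99, adjusted p = 0.0151) from 29.4 and 24.2 to 112 and 86.7 FPKM. Of the ligands of Csf1r, Il34 fell (log2 difference -1.26, adjusted p = 0.0212), and Csf1, at 5.0 and 4.21 FPKM in SunTag and 1.39 and 3.54 FPKM in Myod1_control, did not pass (adjusted p = 0.156). Il34, at 0.714 and 0.799 FPKM in Myod1_control, was tested only because other libraries were higher.

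The genes that act with the C1q chains and with Cd68 did not share their difference. Of 7 partners and regulators of C1, which are mainly products of hepatocytes, 0 fell and 1 rose: C1ra, a protease of the C1 complex, was at 60.1 and 61.7 FPKM in SunTag and 107 and 99.2 FPKM in Myod1_control (log2 difference 0.89, adjusted p = 0.0245). The list's median was 0.38. The 14 lysosomal genes had a median of 0.05 and 0 of them rose, with Ctsb and Npc2, a protease and a cholesterol carrier of the lysosome, among those that fell (adjusted p = 0.0409 and 0.0208). Of 6 complement receptors and integrins of phagocytes 0 passed limma's test and 0 had an unadjusted p under 0.05. The shares over all genes were 24.3% and 41.7%, and the median of these 6 was -0.01. Of 8 tested scavenger receptors and relatives, Msr1, Cd163 and Cxcl16 fell and Scara5 rose. Cd163 in both Myod1_control libraries and Scara5 in both SunTag libraries were under 1 FPKM, so each was tested only because other libraries were higher. Of 8 tested genes for the uptake of dying cells, the function of Timd4, Gas6 and Stab1 fell (median -0.27). Of 5 tested genes of inflammation Il1b, Ccl2, Il18 and Tgfb1 fell (median -1.31). Il1b and Ccl2 were under 1 FPKM in both Myod1_control libraries and were likewise tested only because other libraries were higher.

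Markers of several other cell types moved with this comparison, in which 24.3% of all tested genes passed, 17.0% as lower. The counts for hepatocytes, neutrophils, dendritic cells, monocytes and bile duct are near these shares or rest on few genes. They are not read as a movement of the cell type. Of 14 endothelial markers 12 fell (median -1.11), and their summed level was 249 to 276 FPKM in SunTag and 81.0 to 85.7 FPKM in Myod1_control. Clec4g and Stab1, both of the sinusoidal endothelium, fell by 1.90 and 2.44 on the log2 scale (adjusted p = 0.00807 and 0.00976). The summed level of the 12 lymphocyte markers listed was 9.97 to 16.9 FPKM in SunTag and 1.02 to 3.45 FPKM in Myod1_control. The 6 of these genes that fell were under 1 FPKM in both Myod1_control libraries and had entered the test only through libraries where they were higher, so their count is not used. Nkg7, a marker of cytotoxic lymphocytes, was listed at 0 in all 3 libraries of the Myod1 experiment. Of 7 erythroid genes the 4 globin genes fell and Alas2, the enzyme that starts haem synthesis, rose, with Hba-a1 at 1927 and 1233 FPKM in SunTag and 0.792 and 1.25 FPKM in Myod1_control. Of 10 stellate cell markers 4 fell (median -0.71), and of 8 hepatocyte markers Tat fell and Cps1 rose (median -0.47). In shorter lists, S100a9 fell among 6 neutrophil markers and Batf3 among 3 dendritic cell markers. Of 7 monocyte markers, Plac8 fell and Gpnmb rose, and of 5 bile duct markers Krt7 fell and Sox9 rose. Hba-a2, Hbb-b1, Hbb-b2, Des, Hgf, S100a9, Batf3 and Krt7 were under 1 FPKM in both Myod1_control libraries, and Gpnmb in both SunTag libraries. They too were tested only because other libraries were higher. The part of the differences of other cell types in the result for the macrophage markers was not tested.

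**Figure D3:**
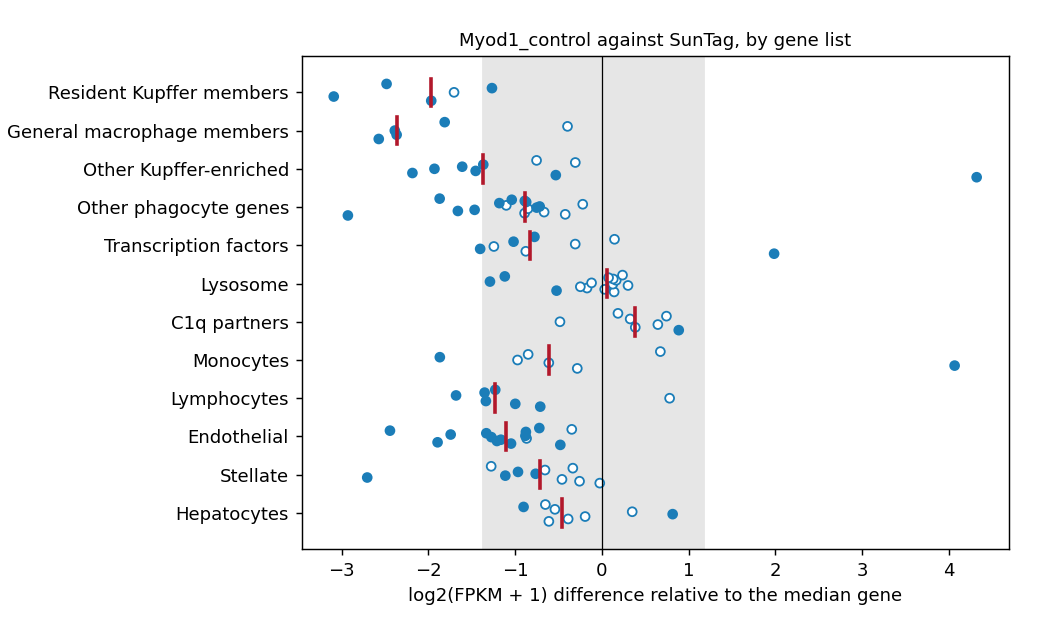
Log2 difference between Myod1_control and SunTag, relative to the median gene, for each tested gene of the macrophage lists and of the lists of other cell types; filled blue points passed limma's test, red bars are list medians and the grey band spans the 5th to 95th percentile of all tested genes. The resident and general markers have medians of -1.97 and -2.37, and the lysosomal genes of 0.05.

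Activation of Myod1 was compared with its own control. In Myod1_active against Myod1_control, 0 of the 10 markers passed limma's test and 0 had an unadjusted p under 0.05, where 0.254% of all genes passed. The 5 resident markers all lay below the median gene, by 0.80 for Vsig4, 0.66 for Clec4f, 0.54 for Cd5l, 0.44 for Marco and 0.28 for Timd4 (log2 differences -0.80, -0.66, -0.54, -0.44 and -0.28). Their adjusted p ranged from 0.313 to 0.971. The general markers lay on either side, from C1qa at -0.30 through C1qb at -0.04, Csf1r at 0.09 and C1qc at 0.12 to Cd68 at 0.76. The middle 90% of all genes lay between -0.88 and 0.78, so that each of the 10 values was inside that range.

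Cd68 was at 14.0 FPKM in Myod1_active against 6.80 ± 3.24 FPKM (SD, n = 2) in its controls, a ratio of 2.07 (SE of the log2 difference 0.415, adjusted p = 0.270). Its log2 difference of 0.76 was 0.32 without Myod1_control replicate 1 and 1.20 without replicate 2. Vsig4 was at 1.63 against 2.87 ± 0.543 FPKM. Clec4f, Vsig4, Timd4 and C1qa were below both controls, as were 16.6% of all genes, and C1qc, Csf1r and Cd68 above both, as were 61.4%. The single activated library is assumed to vary like the other groups, and with 1 library against 2 the smallest two-sided p of an exact permutation test is 0.667. Without Myod1_control replicate 2 the difference of C1qb was 0.215, and without replicate 1 that of C1qc was -0.0673, both of the other sign.

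All 19 other lists held 0 genes past limma's test in this comparison, with an unadjusted p under 0.05 for 0 of the 9 further Kupffer cell genes, 3 of the 16 phagocyte genes and 7 of the 14 lysosomal genes, and for 19.5% of all genes. Of the 9 further Kupffer cell genes 7 lay below the median gene (median -0.35). Of the 16 phagocyte genes 10 lay above it (median 0.21), as did 11 of 14 lysosomal genes (median 0.24) and all 6 complement receptors and integrins (median 0.41). The 14 endothelial markers were all below it (median -0.75), with a sum of 58.7 FPKM against 81.0 and 85.7 FPKM.

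A few macrophage genes had the order of libraries seen for Cd68, with Myod1_control replicate 2 and Myod1_active above Myod1_control replicate 1. They were named after their values had been seen. Of all tested genes 61.4% had Myod1_active above both controls, and the share with the whole order was not computed. Other listed genes had it too, such as the phagocyte genes Ctss and Cybb and the bile duct marker Spp1. Gpnmb, a glycoprotein of lipid-laden and other activated macrophages, was at 0.0918 and 0.0716 FPKM in WT, 0.335 and 0.0990 FPKM in SunTag, 6.59 and 43.9 FPKM in Myod1_control, and 60.8 FPKM in Myod1_active. It rose in Myod1_control against SunTag (log2 difference 4.07, adjusted p = 0.0337), opposite to the resident markers. Gpnmb was under 1 FPKM in all WT and SunTag libraries, so it was tested only through the Myod1 experiment. With no filter on low values it did not pass. Trem2, a lipid receptor of such macrophages, was at 0.412 and 1.25 FPKM in WT, 2.84 and 1.18 FPKM in SunTag, 1.26 and 6.82 FPKM in Myod1_control, and 8.49 FPKM in Myod1_active. Itgax, an integrin of dendritic cells and some macrophages, was at 0.463 FPKM or less in WT and SunTag, 0.227 and 2.04 FPKM in Myod1_control, and 2.87 FPKM in Myod1_active. Neither passed in that comparison (adjusted p = 0.576 and 0.381). The 2 Myod1_control libraries thus differed from each other in Cd68, Gpnmb, Trem2, Itgax and Lyz2, while their Clec4f and Csf1r levels were close. Some other resident and general markers differed between them too. Cd5l was at 13.5 and 8.55 FPKM, Marco at 1.13 and 1.93 FPKM, and C1qb at 9.74 and 14.3 FPKM.

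**Figure D4:**
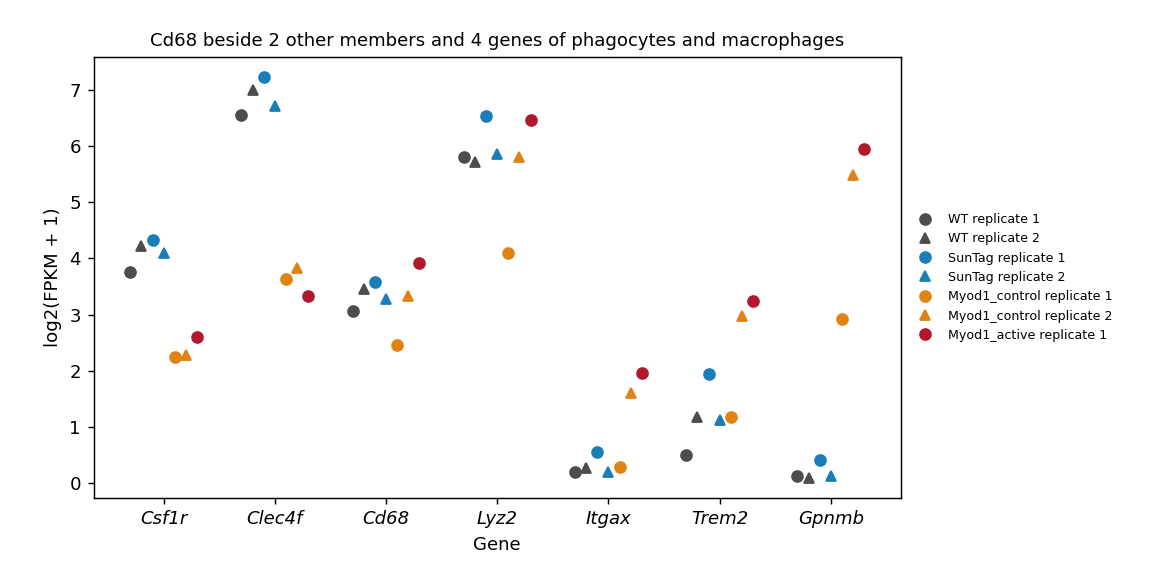
Levels as log2(FPKM + 1) of Cd68, Csf1r, Clec4f and 4 other genes of macrophages in each of the 7 libraries, by group, with circles for replicate 1 and triangles for replicate 2. Gpnmb runs from at most 0.335 FPKM in WT and SunTag to 60.8 FPKM in Myod1_active, and Myod1_control replicate 2 lies near Myod1_active rather than near replicate 1.

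WT and SunTag, which differ in the dCas9 knock-in, were compared in the same fit. Of the 10 markers 0 passed limma's test and 0 had an unadjusted p under 0.05, where 0.127% of all genes passed. All 10 lay above the median gene in SunTag, from 0.11 for Timd4 to 0.98 for Marco, with medians of 0.19 for the resident and 0.24 for the general markers. All 10 overlapped between the groups. The share of all genes that overlapped is not given, so this count shows nothing particular to the markers. With 2 libraries against 2 the smallest two-sided p of an exact permutation test is 0.333. SunTag replicate 1 weighed on these values: without it Marco was at 0.16, Csf1r at 0.12, Vsig4 at 0.041 and Cd68 at 0.023, and Clec4f, Cd5l, Timd4, C1qa, C1qb and C1qc had differences of -0.0594, -0.00247, -0.0634, -0.136, -0.168 and -0.0168. Without WT replicate 1, Clec4f, Csf1r and Cd68 were at -0.0687, -0.0446 and -0.0690.

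The balance of resident and general markers was described as the mean log2(FPKM + 1) of the 5 resident genes less that of the 5 general genes. It was -0.72 and -1.15 in WT, -0.79 and -0.88 in SunTag, -0.83 and -1.24 in Myod1_control, and -1.70 in Myod1_active. The Myod1_active library was the lowest, while the other groups overlapped. Both points depended on the markers used. With Cd68 left out Myod1_active was at -1.64 and WT replicate 2 at -1.59. Without Marco and Timd4 the balance was 0.338 to 0.508 in WT and SunTag, 0.098 and -0.503 in Myod1_control, and -0.995 in Myod1_active. In that version the experiments did not overlap. With all markers, the difference of Myod1_active from the mean of its controls was -0.67. Between Myod1_control and SunTag the balance differed by -0.20, and with Cd68 left out, an alternative added after seeing the data, by 0.18.

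Ratios between single markers within a library gave more detail, and some separated the experiments where the balance over all markers did not. Clec4f was 6.39 to 7.79 times Csf1r in WT and SunTag, 3.03 and 3.46 times in Myod1_control and 1.78 times in Myod1_active. Cd68 was 0.538 to 0.586 of Csf1r in WT and SunTag, a narrow range, and 1.20 and 2.37 times Csf1r in Myod1_control and 2.77 times in Myod1_active. Cd5l over Csf1r overlapped between the experiments, at 2.64 to 3.15 in WT and SunTag, 3.58 and 2.23 in Myod1_control and 1.70 in Myod1_active. The 3 C1q chains kept nearly fixed shares of their sum in WT and SunTag, where C1qa held 40.7% to 41.5% and the sum was 170 to 323 FPKM. In Myod1_control replicate 1 its share was 41.1%, and in replicate 2 and in Myod1_active it were 35% and 32.2%, at sums of 33.4 to 42.6 FPKM. Values of C1qa and C1qb lay outside their own deposited bounds in all 7 libraries, and those of Cd5l in 4, so the bounds give no error for these shares.

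Genes with a profile most like the markers were sought among 9998 genes by the root mean square difference of centred log2(FPKM + 1) values over the 7 libraries. Nearest to the mean of the resident markers were Igfbp3 (0.0811), which encodes a binding protein of insulin-like growth factors, Sept4 (0.0894), a septin of stellate cells in the liver, Adamtsl2 (0.132), Trbc2 (0.146), a constant region of the T cell receptor, and Tmem204 (0.147). The resident markers themselves differed from their mean by 0.196 (Cd5l) to 0.598 (Marco). Igfbp3, for example, was at 12.2 and 14.0 FPKM in WT, 22 and 13.2 FPKM in SunTag, 2.84 and 3.07 FPKM in Myod1_control, and 2.40 FPKM in Myod1_active. Nearest to the general markers were Selm (0.0746), Cxcl16 (0.114), Klf2 (0.161), Srgn (0.168) and Fscn1 (0.182), against 0.146 (Csf1r) to 0.867 (Cd68) for the markers themselves. All 7 libraries share the step between the experiments, which any gene that was lower in the Myod1 experiment follows.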

How the data were processed

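Total RNA of liver was extracted with the Direct-zol kit for Illumina sequencing, per the labels' protocols. Reads passed through cutadapt 1.11, TopHat2 2.1.1 and Cufflinks 2.2.1 on mm9, per the submitters' processing notes, which name no settings here. The authors deposited FPKM per gene with bounds and a status, per the file headers. Read counts were unknown. Since 11.5% to 13.4% of values per library lay outside their own bounds, no error was taken from the bounds.

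Rows with a status other than OK (343) were left out, and rows of 1 symbol were summed (244 symbols). The test was limma 3.58.1 (R 4.3.3) on log2(FPKM + 1) for the 15744 genes with at least 1 FPKM in at least 1 library. It used all 7 libraries with a mean for each group and a variance trend (3 residual and 1.93 prior degrees of freedom), with two-sided p-values adjusted by Benjamini-Hochberg across every tested gene and a threshold of 0.05. The code was tested on simulated data. Log2 differences on this scale understate the change of low genes. They are given from the median gene, which lay at 0.01 in SunTag against WT, 0.25 in Myod1_active against Myod1_control and -0.14 in Myod1_control against SunTag. Starts in the tables count from 0 and were raised by 1. Tables compared in pairs had no more than 1 value above 0 in common, so each library counted as its own.

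The markers and the 19 other gene lists (198 genes) were chosen with earlier results of these data known. Named genes were the markers, up to 4 most abundant genes of each list and those past the threshold, and the 5 genes nearest to each marker group, with fewer named where values would repeat. The values of 1 listed gene are not reported here. Alternatives were another pseudocount, other filters, 2 scalings, a fit without short genes or without the variance trend, a replicate block, a fit of the compared groups alone and leaving out each library. Replicate numbers were not treated as pairs.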

Additional observations from a re-analysis of the deposited data

How the results depend on the processing

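Read counts were not available, so depth limits could only be read from relative values, and groups of 1 or 2 libraries limit every test here. In Myod1_control against SunTag, 3832 genes were called, 1149 higher and 2683 lower; the split was 1735 and 1846 with median-ratio scaling and 1757 and 1764 with quantile normalization. Of the markers 8 passed under these scalings too. With the compared groups alone 255 genes and 3 markers were called, and leaving out 1 library gave 58 to 4070 genes and 0 to 9 markers. SunTag against WT had 20 calls, 5 without genes spanning less than 300 bp, 31 with the compared groups alone and 23 to 79 with 1 library left out. Myod1_active against Myod1_control had 40 calls, 23 with a pseudocount of 0.1, 253 with no filter, 20 without short genes and 49 to 119 with 1 library left out. With these 2 groups alone limma called 0 genes (2425 at an unadjusted p under 0.05), 9 of the 10 markers being testable. The cause of these changes was not tested.

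The replicate block gave 15, 23 and 2928 calls in SunTag against WT, Myod1_active against Myod1_control and Myod1_control against SunTag, and 0, 0 and 8 markers. Replicate differences of WT and SunTag correlated at 0.0425 across genes. With 1 difference per group this cannot tell whether same-numbered samples were paired, and the labels do not say. Leaving out the only Myod1_active library gives no value for its comparison, and no marker had more than 1 row, so another way of joining rows gave no other level.

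Some marker differences changed sign. In the fit with all libraries they had reached 0.37 for C1qc in SunTag against WT and -0.40 for Cd68 in Myod1_control against SunTag. With 1 library left out, the difference in SunTag against WT ranged from -0.0687 to 0.44 for Clec4f, -0.00247 to 0.40 for Cd5l, -0.0634 to 0.30 for Timd4, -0.136 to 0.71 for C1qa, -0.168 to 0.67 for C1qb, -0.0168 to 0.78 for C1qc, -0.0446 to 0.47 for Csf1r and -0.0690 to 0.38 for Cd68. In Myod1_active against Myod1_control it ranged from -0.31 to 0.215 for C1qb, which was 0.14 with no filter, and from -0.0673 to 0.31 for C1qc. In Myod1_control against SunTag it ranged from -0.82 to 0.0472 for Cd68. The balance of resident and general markers in SunTag against WT (0.094) was -0.0383 without Marco and Timd4 and -0.0982 by medians. In Myod1_control against SunTag it was -0.607 without Marco and Timd4 and 0.182 without Cd68.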
